A study of Rattus norvegicus with 110 samples.

Results

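The livers described here came from 28 F2 male Sprague Dawley rats, an outbred strain, all given the low dose of carbon tetrachloride (CCl4) and differing in the treatment of their paternal grandsire (F0) and sire (F1). They were chosen as the liver samples at 8% CCl4, and are 28 of the 83 liver samples and of the 110 samples of the series, which also holds 27 vehicle and 28 high-dose liver samples. All 28 males received 8% (v/v) CCl4 in olive oil at 0.5 mL/kg by oral gavage, 3 times per week over 39 days, those with untreated ancestors included. Group 12 had an F0 and an F1 sire given olive oil, group 15 an oil-treated F0 and a CCl4-treated F1 sire, group 18 a CCl4-treated F0 and an oil-treated F1 sire, and group 21 CCl4-treated sires in both generations, with 7 males in each. Treated F0 and F1 males had received 50% CCl4 for 6 weeks and recovered for 2 weeks before they were mated with females that had not been treated. The F0 effect is the difference between the 14 males of groups 18 and 21 and the 14 males of groups 12 and 15, with the F1 treatment as a covariate.

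CCl4 is turned into a reactive radical by cytochrome P450 enzymes of hepatocytes around the central vein, and repeated doses kill these cells and activate stellate cells, the main makers of scar collagen in the liver. The design asks whether the injury of a grandsire is seen in the liver RNA of grandsons that were themselves injured mildly. Several of the genes below belong to programmes with a strong daily or hormonal rhythm in liver. Glucocorticoids, the hormones of the adrenal cortex, induce genes such as Fkbp5, Tsc22d3 and Zbtb16, and the clock is a loop in which Arntl and Clock activate, and Per and Cry proteins repress, transcription.

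The F0 sires are the animals to which this treatment was given, and they were fewer than the grandsons: the 14 males with oil-treated grandsires descended from 8 F0 sires through 14 litters, and the 14 males with CCl4-treated grandsires from 9 F0 sires through 13 litters. In group 18, replicates 3 and 4 came from the same litter. A p-value over the 28 males therefore treats grandsons of the same sire as independent, and values per F0 sire are given below. The 4 necropsy dates were balanced, with 2, 2, 1 and 2 males of each group on dates 1 to 4. The library totals lay between 35032899 and 51343589 counts for oil-treated grandsires (median 39150556) and between 31738726 and 45414251 for CCl4-treated ones (median 39018200). The library of group 18 replicate 10 had the lowest total and stood farthest from its group, with a root mean square deviation of 0.643 on the log2 scale against 0.540 for the next (group 12 replicate 4). The tables pair no identifier with a symbol, and the symbols used were those that the study lists for 1488 of the 17938 tested genes, chosen by the study on samples that include these, so a symbol is not independent of a difference. The hepatocyte markers had no identifier, and the tissue could not be checked against them.

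In the low-dose males 35 of 17938 tested genes (0.195%) passed an adjusted p under 0.1 with a mean normalized count over 50 (edgeR's quasi-likelihood test, Benjamini-Hochberg adjustment), 19 higher (0.106%) and 16 lower (0.0892%) with a CCl4-treated grandsire. At an unadjusted p under 0.05 there were 2072 genes, 11.6% of those tested. Of the 35 genes 33 had a symbol. The changes were mostly small: the median absolute log2 fold change was 0.47, only 4 genes passed 1 in absolute value, and all 4 of these (Zbtb16, Zfp354a, Tsku and Sdc4) were lower. The counts of the 14 and the 14 males overlapped for each of the 35 genes, and for all genes tested. The number of calls moved by over 1.5 times when any 1 of 20 of the 28 males was left out, upward for 5 and downward for 15. Without group 18 replicate 10 it was 480, without group 15 replicate 4 it was 340 and without group 15 replicate 5 it was 4. None of the 35 genes changed direction when any of the 28 males was left out, a description, because the same males chose the 35. With the F0 sire as the unit, 1 gene (Hexd) was called. DESeq2 called 308 genes, all 35 among them.

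The group of transcription regulators held the gene with the largest change. Zbtb16, a zinc finger repressor of the BTB family, ranged from 395 to 2821 normalized counts in group 12 (median 1106) and from 57.3 to 1903 in group 15 (median 490). In group 18 it ranged from 73.7 to 1188 (median 175), and in group 21 from 49.5 to 176 (median 78.1). The highest male of group 21 thus lay below the lowest of group 12, but groups 15 and 18 each held males at either level. With a CCl4-treated grandsire Zbtb16 fell by 2.61 on the log2 scale (SE 0.50, adjusted p = 0.0416), and 13 of 14 males lay below the median of the males with oil-treated grandsires. Zfp354a, a KRAB zinc finger gene of liver and kidney, had a median of 844 normalized counts over the males with oil-treated grandsires, with 2 far higher males at 8160 and 9483, and of 366 with CCl4-treated grandsires, where no male passed 809. It fell by 2.34 (SE 0.45, adjusted p = 0.0417).

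Other regulators moved the other way by smaller amounts. Tcf7l2, the transcription factor at the end of the Wnt pathway, rose by 0.46 on the log2 scale (SE 0.11, adjusted p = 0.089), from a median of 503 to 687 normalized counts. Rreb1, a zinc finger factor downstream of Ras, rose by 0.43 (SE 0.08, adjusted p = 0.0444), with a median of 2350 against 2978, and 13 of 14 males lay above the median of the other group. Irf3, a factor that turns on interferon genes, rose by 0.36 (SE 0.08, adjusted p = 0.089). Cry2, a repressor of the clock, ranged from 667 to 1401 normalized counts (median 975) with oil-treated grandsires and from 899.8 to 2002 (median 1282) with CCl4-treated ones. Its rise of 0.47 (SE 0.11, adjusted p = 0.089) was seen in 13 of 14 males against the median of the other group. Among chromatin proteins, Kmt5c, a histone methyltransferase of heterochromatin, rose by 0.53 (SE 0.11, adjusted p = 0.0687) and Tnrc18, a large nuclear protein, by 0.67 (SE 0.15, adjusted p = 0.0729). For Tnrc18, 11 of the 14 males with a CCl4-treated grandsire lay above the highest of the others, which was 1659 normalized counts.

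**Figure D1:**
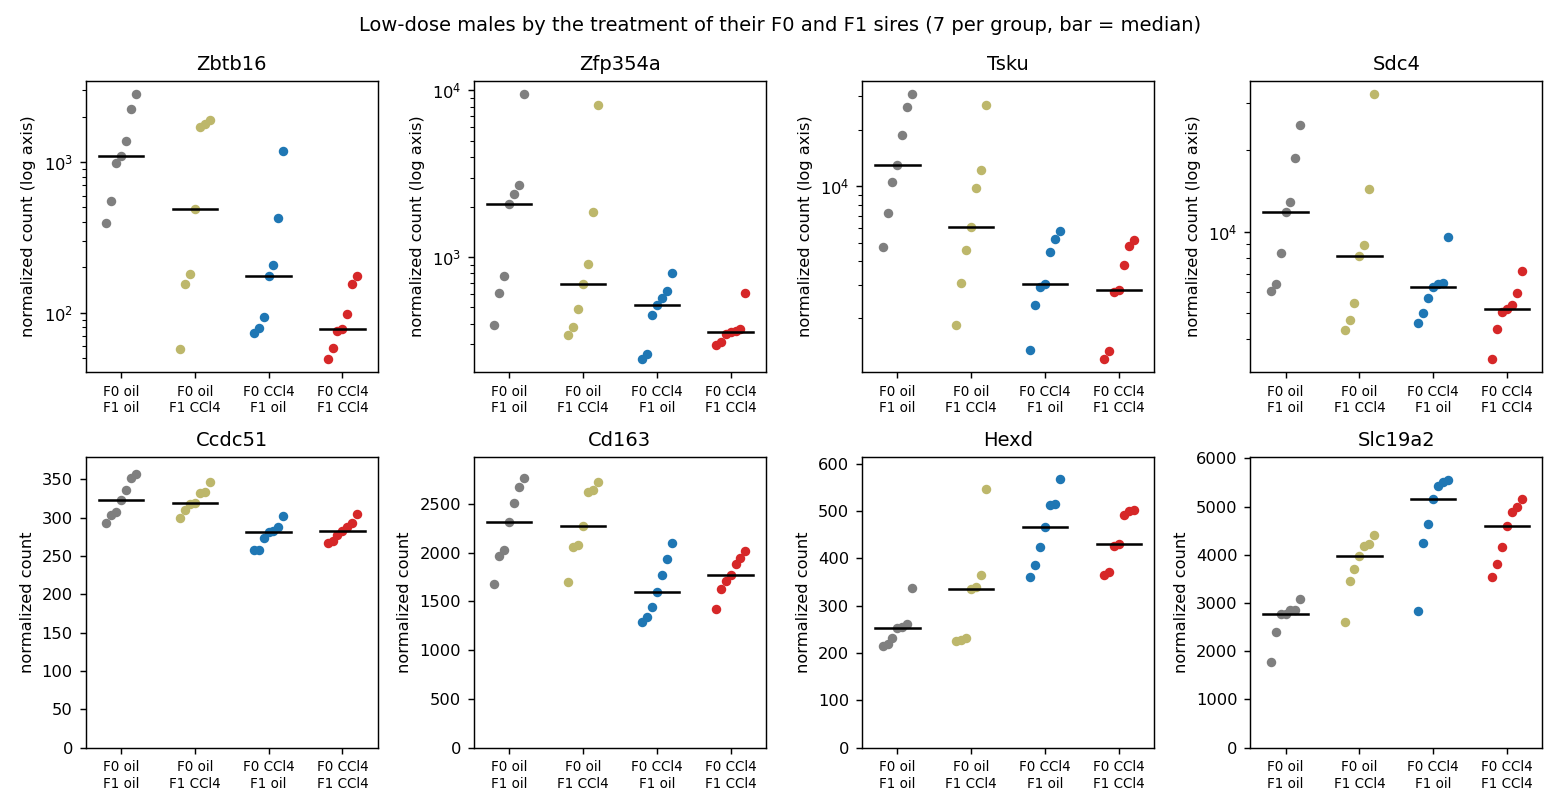
Normalized counts of 8 called genes in each low-dose male (points, 7 per group), with the group median as a bar and the treatment of the F0 and F1 sires on the horizontal axis. The upper row has log axes and the lower row starts at 0. Zbtb16 lies between 49.5 and 176 in group 21 and between 395 and 2821 in group 12, while the Ccdc51 counts of groups 18 and 21 reach 305 at most and those of groups 12 and 15 start at 293.

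Called genes of the matrix, of proteoglycans and of secreted signals moved in both directions. Tsku, a small leucine-rich proteoglycan secreted by hepatocytes, ranged from 4770 to 30819 normalized counts in group 12 (median 12997), from 1826 to 26898 in group 15 (median 6103), from 1359 to 5788 in group 18 (median 3024) and from 1215 to 5179 in group 21 (median 2807). All 14 males with a CCl4-treated grandsire lay below the median of the others, and Tsku fell by 1.85 (SE 0.35, adjusted p = 0.0416). Sdc4, the heparan sulfate proteoglycan syndecan-4, fell by 1.06 (SE 0.25, adjusted p = 0.0923). Its counts ran from 4347 to 32207 (median 8628) with oil-treated grandsires and from 3389 to 9590 (median 5536) with CCl4-treated ones, and 13 of 14 males lay below the median of the others. The identifier that the study pairs with both LOC103690116 and Omd, the leucine-rich proteoglycan osteomodulin, fell by 0.64 (SE 0.15, adjusted p = 0.089). Its reads could belong to either name. Loxl4, an enzyme that cross-links collagen, rose by 0.75 (SE 0.17, adjusted p = 0.0824), from a median of 698 to 1038 normalized counts. Vegfa, the growth factor of endothelial cells, rose by 0.42 (SE 0.10, adjusted p = 0.0945), and all 14 males lay above the median of the other group.

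The upstream sequences of the 3 lower genes with the largest changes that had an entry are shown because these genes had the largest changes beside Zbtb16. They are the 250 bases before the annotated start in RefSeq (build GRCr8, chr10:35897013-35897262 on the plus strand for Zfp354a, chr1:162082769-162083018 on the minus strand for Tsku and chr3:173592924-173593173 on the minus strand for Sdc4), written 5′ to 3′ with CG dinucleotides in capitals.
Zfp354a: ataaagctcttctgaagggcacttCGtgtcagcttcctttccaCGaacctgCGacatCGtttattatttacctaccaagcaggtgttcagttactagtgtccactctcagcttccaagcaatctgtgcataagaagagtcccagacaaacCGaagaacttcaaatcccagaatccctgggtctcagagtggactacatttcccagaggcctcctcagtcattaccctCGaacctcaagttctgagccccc
Tsku: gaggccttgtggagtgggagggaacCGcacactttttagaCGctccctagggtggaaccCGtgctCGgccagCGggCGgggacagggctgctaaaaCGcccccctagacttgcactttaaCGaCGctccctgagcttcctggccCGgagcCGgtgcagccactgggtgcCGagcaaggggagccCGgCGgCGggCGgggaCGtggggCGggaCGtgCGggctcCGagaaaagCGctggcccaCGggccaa
Sdc4: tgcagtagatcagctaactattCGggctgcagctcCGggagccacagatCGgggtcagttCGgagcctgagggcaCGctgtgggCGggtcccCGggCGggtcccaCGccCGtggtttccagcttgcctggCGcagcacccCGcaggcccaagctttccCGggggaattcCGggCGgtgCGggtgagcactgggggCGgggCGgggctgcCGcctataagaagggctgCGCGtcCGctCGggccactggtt
The window of Zfp354a held 6 CG dinucleotides and those of Tsku and Sdc4 held 23 each. The median was 5 over all 33469 windows and 16.5 over the 30 found for called genes. Such windows were found by symbol for 30 of the 35 genes, and Zbtb16 was not among them. The 33469 windows were not limited to genes tested here, whereas a called gene had to pass a minimum mean count in these livers. The medians above and the motif shares below therefore cannot separate the F0 effect from expression in liver. Windows of genes that were expressed but not called were not compared. On both strands, the E-box CACGTG was present in 3 of the 30 windows (Dhdds, Snap29 and Dgkq; 5.59% of all 33469 windows), the shorter glucocorticoid motif AGAACA in 2 (Dhdds and Kmt5c; 17.5% of all) and the shorter cyclic AMP motif TGACG in 8 (18.2% of all). The D-box TTATGTAA and the full cyclic AMP site TGACGTCA, which contains TGACG, were in 0 of the 30 windows (0.828% and 1.59% of all). A match is a run of letters in this window and says nothing of binding, and a missing one covers only these 250 bases.

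Called genes of the actin cytoskeleton and its regulation were higher with a CCl4-treated grandsire. Dock6, an exchange factor for Rac1 and Cdc42, rose by 0.47 (SE 0.11, adjusted p = 0.0945), and Spata13, another exchange factor, by 0.44 (SE 0.10, adjusted p = 0.0714). Smtn, the smooth muscle protein smoothelin, rose by 0.50 (SE 0.11, adjusted p = 0.089), with 14 of 14 males above the median of the other group, and Nhsl1, a regulator of the actin network, by 0.51 (SE 0.11, adjusted p = 0.0609). In contrast, the called genes of lysosomes, membrane fusion and protein turnover were lower. Arl8b, a small GTPase that positions lysosomes, ran from 1951 to 3924 normalized counts (median 2629) with oil-treated and from 1772 to 2746 (median 1955) with CCl4-treated grandsires, and fell by 0.43 (SE 0.08, adjusted p = 0.0416). Snap29, a SNARE protein of autophagosome fusion, fell by 0.21 and Usp14, a deubiquitinase of the proteasome, by 0.22 (SE 0.05 and adjusted p = 0.089 for each). These sets were drawn up after the values were seen and describe the called genes only.

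Enzymes and transporters were found in both directions. Hexd, the nucleocytoplasmic hexosaminidase D, had medians of 252 and 336 normalized counts in groups 12 and 15 and of 466 and 431 in groups 18 and 21. Its highest value with an oil-treated grandsire was 547, in group 15 replicate 4, and all 14 males with a CCl4-treated grandsire lay above the median of the others, from 361 upward. Hexd rose by 0.65 (SE 0.12, adjusted p = 0.0416). It was the only one of the 35 genes called with the F0 sire as the unit (adjusted p = 0.085) and with the F0 sire as a correlated block in limma-voom (adjusted p = 0.0402). Slc19a2, a thiamine transporter, rose by 0.54 (SE 0.11, adjusted p = 0.0609), and 9 of 14 males lay above 4412 normalized counts, the highest value of the others. Dgkq, a diacylglycerol kinase, rose by 0.42 (SE 0.09, adjusted p = 0.0687). Pcyt1a, the rate-limiting enzyme of phosphatidylcholine synthesis, fell by 0.43 (SE 0.10, adjusted p = 0.0824) and Dhdds, a subunit of the enzyme that makes the dolichol chain, by 0.42 (SE 0.10, adjusted p = 0.089).

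Cd163, the receptor by which macrophages take up haptoglobin and haemoglobin, ranged from 1682 to 2766 normalized counts (median 2293) with oil-treated grandsires and from 1287 to 2101 (median 1739) with CCl4-treated ones. It fell by 0.43 (SE 0.09, adjusted p = 0.0604), and 14 of 14 males lay below the median of the others. Of the 20 genes listed for macrophages and inflammation, 6 had an identifier, 4 with a negative and 2 with a positive difference, and Cd163 was the only one called. Adgre1, the macrophage marker F4/80, differed by -0.25 (SE 0.13, adjusted p = 0.45) and Cd14, a lipopolysaccharide receptor, by -0.15 (SE 0.15, adjusted p = 0.747). Lcn2, an acute phase protein, differed by -0.66 (SE 0.50, adjusted p = 0.657), Ccl2, a chemokine that attracts monocytes, by 0.44 (SE 0.41, adjusted p = 0.728), and the identifier paired with both LOC100911545 and A2m by 0.55 (SE 0.66, adjusted p = 0.793). In whole liver, fewer cells of a type and less RNA per cell cannot be told apart. The called gene with the least overlap was Ccdc51, a subunit of a mitochondrial potassium channel. It fell by only 0.21 (SE 0.05, adjusted p = 0.0885), from between 293 and 356 to between 257 and 305 normalized counts, and 12 of 14 males lay below the lowest of the others. A male with a CCl4-treated grandsire had the higher count in 2.55% of the pairs of males for Ccdc51, against 14.3% for Zbtb16.

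The remaining called genes, named to account for all 35, were Akap8l, a nuclear anchor protein (higher by 0.57), Mcc, a cytoplasmic protein first described in colorectal cancer (higher by 0.66), Thumpd2, an RNA methyltransferase (higher by 0.36), Dclre1b, a nuclease of telomeres (lower, -0.36), Zmynd19, a MYND zinc finger protein (lower, -0.27), and RGD1309534 (lower, -0.53). Their adjusted p lay between 0.0687 and 0.089. ENSRNOG00000019481.5 was higher by 0.83 (SE 0.17, adjusted p = 0.0604), with a median of 20354 against 11779 normalized counts, and ENSRNOG00000008842.4 was lower, at -0.63 (SE 0.15, adjusted p = 0.089). Both have no symbol here.

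**Figure D2:**
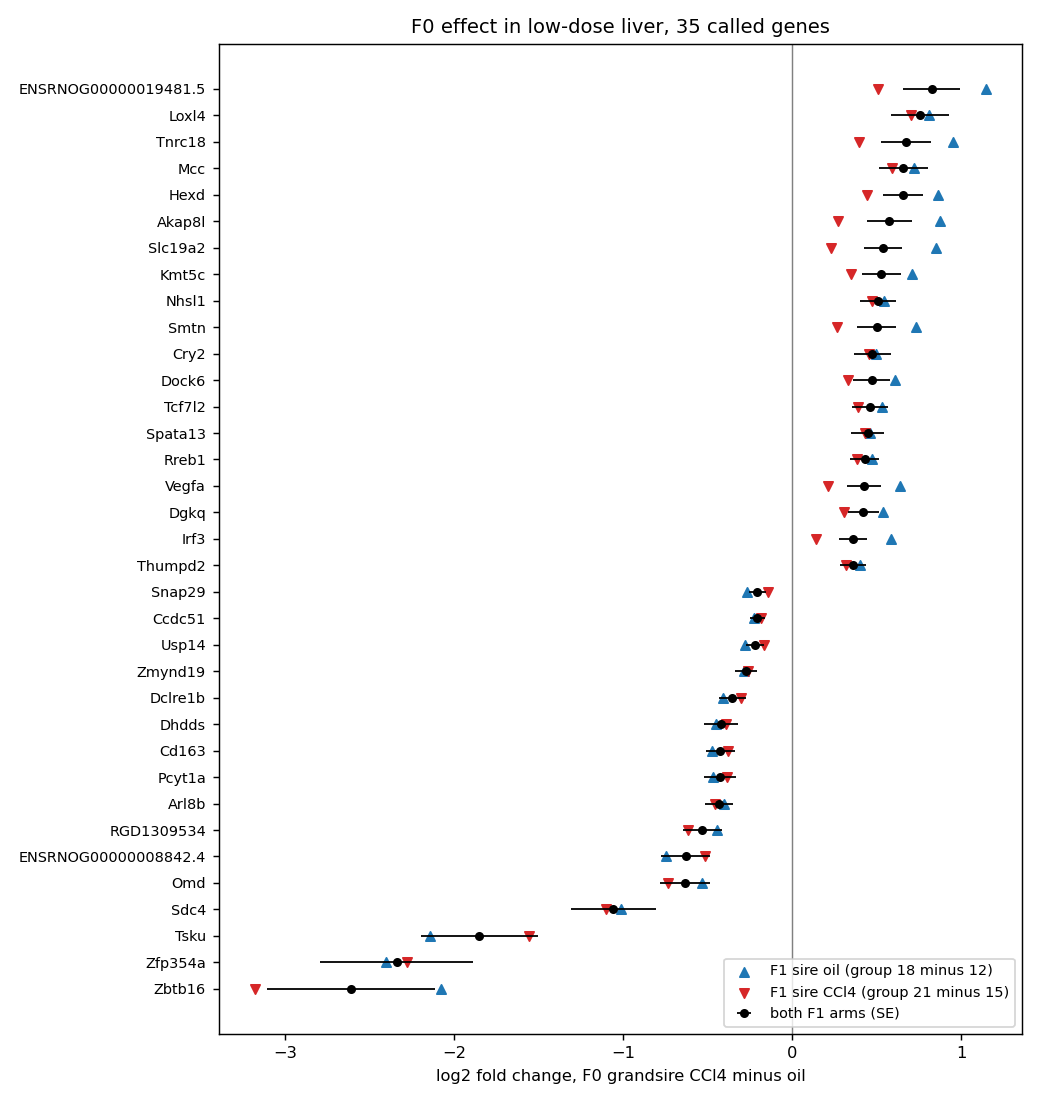
Log2 fold change (CCl4-treated minus oil-treated F0 grandsire, horizontal axis) of the 35 called genes, with its standard error over both F1 arms (black), and the same difference with an oil-treated (blue, up) or a CCl4-treated F1 sire (red, down). All 35 genes have the same sign in both arms. Zbtb16, with the largest change over both arms, differs by -2.08 with an oil-treated and -3.18 with a CCl4-treated F1 sire.

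The F1 arms were compared to see whether the grandsire effect depended on the sire's treatment. With an oil-treated F1 sire (group 18 against 12), 7 genes were called (0.039% of those tested), all higher and all among the 35: Slc19a2, Akap8l, Smtn, Vegfa, Hexd, Irf3 and ENSRNOG00000019481.5. DESeq2 called 242 genes in this arm, 180 higher and 62 lower. With a CCl4-treated F1 sire (group 21 against 15), edgeR called 0 genes and DESeq2 1, and 821 genes had an unadjusted p under 0.05 (4.58%), against 1883 (10.5%) in the other arm. The difference between the arms was tested as the F0 by F1 interaction. It was called for 0 genes by edgeR and by DESeq2, with 642 genes (3.58%) at an unadjusted p under 0.05 in edgeR and a lowest adjusted p of 0.768. All 35 genes had the same sign in both arms, as did 60.1% of all tested genes, which is a description because the arms make up the contrast that chose the 35. The change was larger with an oil-treated F1 sire for 30 of the 35 (57.2% of all tested genes). Slc19a2 rose by 0.85 with an oil-treated and by 0.23 with a CCl4-treated F1 sire, and Irf3 by 0.58 and 0.14. Neither passed the interaction test in edgeR. In both cases group 15 lay above group 12, with Slc19a2 medians of 3984 and 2771 normalized counts. The F1 effect itself, fitted beside the F0 effect, was called for 0 genes by edgeR and by DESeq2, with 536 genes (2.99%) at an unadjusted p under 0.05 in edgeR.

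The vehicle and the high-dose males carry the same ancestral treatments but are other animals, so they show how the genes chosen at the low dose behaved in samples that the choice did not use. They share F0 sires, litters and necropsy dates with the low-dose males, and the study listed the symbols on all of them, so they are not fully independent. In vehicle males all 35 genes had the same sign as at the low dose, and 29 of them (82.9%) passed an unadjusted 0.05 as well. Among genes that were not called but reached a mean of 50 normalized counts, 69.6% had the same sign and 10.9% also an unadjusted p under 0.05. The median change in the low-dose direction was 0.38 for the 35 genes in vehicle males, against a median absolute change of 0.47 at the low dose, and 0.06 for the other genes. In high-dose males 33 of the 35 had the same sign (61.3% of the other genes), 16 of them with an unadjusted p under 0.05 (4.90% of the others), and the median change was 0.25. Over all genes tested in each dose alone, 178 (1.02%) were called in vehicle males, 103 higher (0.588%) and 75 lower (0.428%), and 0 in high-dose males, where 1080 (5.82%) had an unadjusted p under 0.05.

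The F0 effect on Zbtb16 was -2.32 (SE 0.47, adjusted p = 0.0398) in vehicle, -2.61 (SE 0.50) in low-dose and -2.32 (SE 0.49, adjusted p = 0.129) in high-dose males. For Zfp354a the values were -1.77 (SE 0.53), -2.34 (SE 0.45) and -0.63 (SE 0.32), and for Tsku -1.21 (SE 0.38), -1.85 (SE 0.35) and -0.78 (SE 0.27). Acer2, an alkaline ceramidase that the study names among its examples, was not called at the low dose (-0.75, SE 0.19, adjusted p = 0.11) but passed the test in vehicle males (-0.84, SE 0.14, adjusted p = 0.00805), and differed by -0.75 (SE 0.15, adjusted p = 0.129) in high-dose males. At the low dose Acer2 passed the threshold without any 1 of group 18 replicates 4 and 10, group 15 replicates 1, 2, 4 and 7 and group 12 replicate 9, with adjusted p between 0.0602 and 0.0994. Slc10a2, a bile acid transporter and the only one of the study's 4 examples with a positive difference, differed by 0.23 (SE 0.22, adjusted p = 0.733) at the low dose, by 0.53 with an oil-treated and -0.07 with a CCl4-treated F1 sire, and by 0.74 (adjusted p = 0.107) in vehicle males. ENSRNOG00000019481.5, which had the largest rise among the 35 called genes, differed by 0.06 (SE 0.15, adjusted p = 0.944) in vehicle males. Loxl4 differed by -0.01 (SE 0.16, adjusted p = 0.997) in high-dose males. These are values side by side, and the difference between doses was tested in a fit of all 12 groups. The F0 effect differed between the low dose and vehicle for 0 genes with a mean normalized count over 50. At any mean, 136 genes had an adjusted p under 0.1, all with mean normalized counts of at most 27.1. Between the low and the high dose it differed for 0 genes at any mean. At an unadjusted p under 0.05 there were 821 genes (4.32%) and 716 genes (3.77%), and DESeq2 called 2 genes in each of these comparisons.

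**Figure D3:**
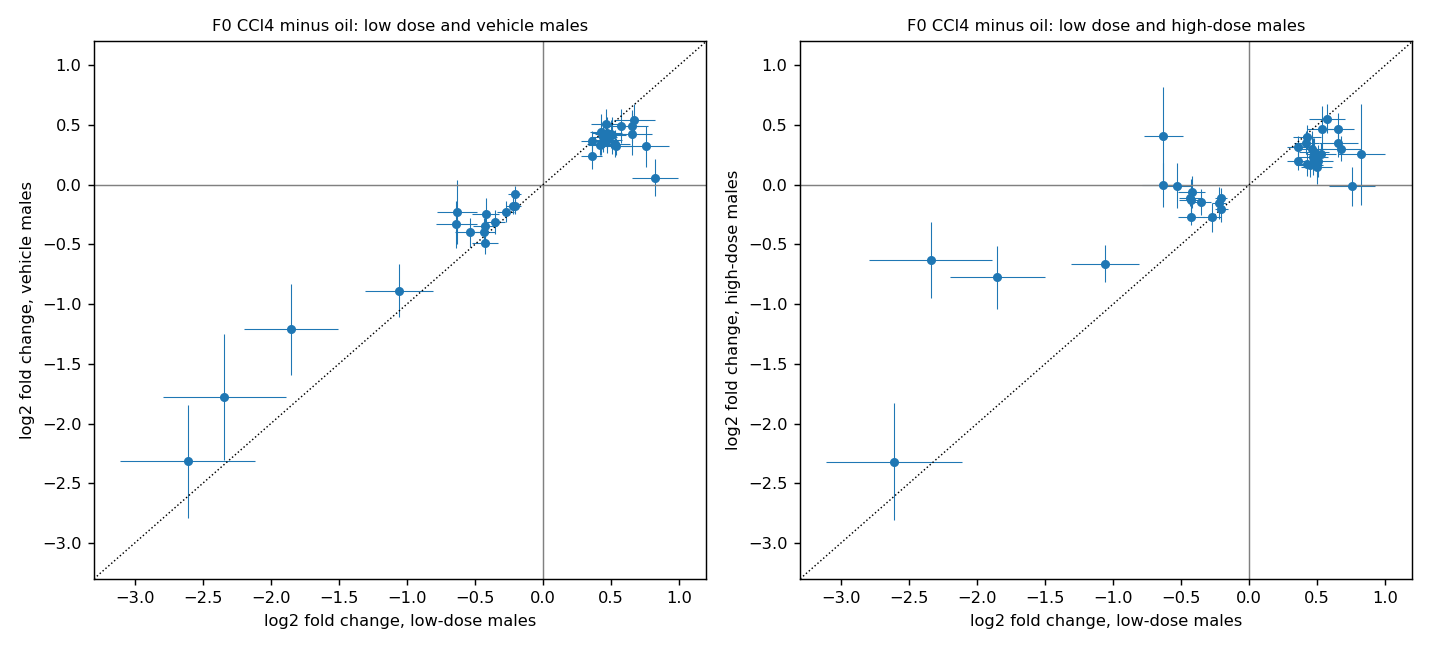
F0 effect (log2 fold change with standard errors) of the 35 called genes in low-dose males, on the horizontal axis, against vehicle males (left) and high-dose males (right), with equality dotted. All 35 genes share their sign with vehicle males and 33 with high-dose males. Zbtb16, the lowest point, lies at -2.61, -2.32 and -2.32.

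The 4 genes with the largest falls also varied widely within groups. For 9 pairs of genes, chosen after their values were seen, the correlation over the deviations of the 28 males from their group means (log2 normalized count + 1) is given as a description, with no test. Among the 4 genes, Zfp354a and Sdc4 had Pearson's r = 0.921 and Spearman's rho = 0.856, Zbtb16 and Sdc4 r = 0.761 and rho = 0.732, Zfp354a and Tsku r = 0.738 and rho = 0.707, Tsku and Sdc4 r = 0.687 and rho = 0.571, Zbtb16 and Zfp354a r = 0.641 and rho = 0.614, and Zbtb16 and Tsku r = 0.596 and rho = 0.609. With genes that glucocorticoids induce, Zbtb16 had r = 0.850 and rho = 0.846 for Fkbp5, a co-chaperone of the glucocorticoid receptor, r = 0.776 and rho = 0.816 for Lpin1, a phosphatidate phosphatase, and r = 0.593 and rho = 0.504 for Tsc22d3. Without the 2 males farthest from the median of the first gene of a pair, r was between 0.546 (Zbtb16 and Tsc22d3) and 0.858 (Zfp354a and Sdc4). Within necropsy dates r was 0.885 for Zfp354a and Sdc4, 0.592 for Zbtb16 and Sdc4, 0.683 for Zfp354a and Tsku, 0.624 for Tsku and Sdc4, 0.423 for Zbtb16 and Zfp354a, 0.479 for Zbtb16 and Tsku, 0.767 for Zbtb16 and Fkbp5, 0.637 for Zbtb16 and Lpin1 and 0.307 for Zbtb16 and Tsc22d3.

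Zbtb16 was the only glucocorticoid-induced gene called. Of 17 listed genes 8 had an identifier, all 8 had a negative difference (median -0.94, against 0.00 over all tested genes), and 6 of these also had an unadjusted p under 0.05. Over all tested genes 50.6% had a positive difference and 11.6% such a p in either direction. Only genes that the study listed, on samples that include these, had an identifier. The common sign and the low p are therefore not independent evidence. Fkbp5 had a median of 1744 normalized counts with oil-treated and 1087 with CCl4-treated grandsires, a difference of -0.89 (SE 0.22, adjusted p = 0.111). Tsc22d3, the leucine zipper protein GILZ, differed by -1.17 (SE 0.31, adjusted p = 0.124) and Lpin1 by -1.08 (SE 0.32, adjusted p = 0.165). Tat, tyrosine aminotransferase, differed by -0.65 (SE 0.28, adjusted p = 0.363), and a male with a CCl4-treated grandsire had the higher count in 39.8% of pairs. The calls turned on single males. Fkbp5 passed the threshold without group 18 replicate 10 (-0.85, adjusted p = 0.0722) or replicate 4, and without group 15 replicate 1, 4 or 7. Tsc22d3 passed without group 18 replicate 10 (-1.24, adjusted p = 0.0694) and without group 15 replicate 1, 4 or 7.

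Among clock genes Cry2 was the only one called. In the evening-phase list 7 of 12 genes had an identifier, 5 with a positive and 2 with a negative difference. All 7 had an unadjusted p under 0.05 (50.6% of all tested genes had a positive difference and 11.6% such a p). The study picked the genes with an identifier on samples that include these, so the shares are not independent evidence. Dbp, a PAR bZIP factor that follows the clock, differed by 1.67 (SE 0.50, adjusted p = 0.166) and Per3 by 1.28 (SE 0.38, adjusted p = 0.165). By date, Dbp differed by 2.41, 0.20, 1.26 and 0.73 on dates 1 to 4, and Per3 by 2.15, 0.34, 0.25 and 0.30 (difference of mean log2 normalized count + 1). On date 1 group 21 replicate 1 had 3515 and group 18 replicate 2 had 1355 normalized counts of Dbp, against a highest value of 852 (group 15 replicate 9, date 4) with oil-treated grandsires. The same males had the lowest counts of Arntl, 256 and 609, followed by group 15 replicate 9 with 828. Without date 1 Dbp differed by 0.54 (adjusted p = 0.842) and Per3 by 0.30 (adjusted p = 0.89). Nr1d1, a nuclear receptor of the clock, differed by 0.93 (SE 0.40, adjusted p = 0.356), while Per1 and Usp2, of the same list, differed by -0.99 (SE 0.44, adjusted p = 0.376) and -1.35 (SE 0.37, adjusted p = 0.133). Of the day-phase list 2 of 6 genes had an identifier, and Arntl (-0.36) and Cry1 (-0.45) were not called. Without group 18 replicate 10, Dbp (1.70, adjusted p = 0.0961), Per3 (1.33, adjusted p = 0.0892) and Usp2 (-1.29, adjusted p = 0.0892) passed the threshold. Dbp also passed without group 15 replicate 9, and Usp2 without group 15 replicate 1, 4 or 7 or group 21 replicate 1. The part of these males' clock gene levels in the F0 effect was not tested.

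By necropsy date, 32 of the 35 genes kept their sign on each of the 4 dates (19.2% of all tested genes did, but the dates make up the contrast that chose the 35). The exceptions were Tsku, Spata13 and Mcc, each on date 3, which had 2 males with a CCl4-treated and 2 with an oil-treated grandsire. Tsku differed by -0.54, -3.02, 0.02 and -2.18 on dates 1 to 4 (difference of mean log2 normalized count + 1), and Mcc by 0.93, 0.89, -0.49 and 0.82. Zbtb16 differed by -1.38, -2.64, -1.64 and -3.69. Dock6 kept its sign but had unequal values, at 1.01, 0.48, 0.22 and 0.10. With the date as a block all 35 genes remained called, among 86. Leaving a date out ended most calls: 0 genes were called without date 1 and without date 4, 2 without date 2 and 19 without date 3. Each such fit held fewer males, by 2 per group for dates 1, 2 and 4 and by 1 for date 3. Without dates 1 to 4, 1305, 1596, 1775 and 2577 genes had an unadjusted p under 0.05, against 2072 with all males. None of the 35 changed direction, a description, because the same males chose them. With the replicate number as a block, which is nested in the date, 0 genes were called. Replicates 3, 6 and 8 were present only in group 18, so those males added nothing to the F0 effect in this fit.

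**Figure D4:**
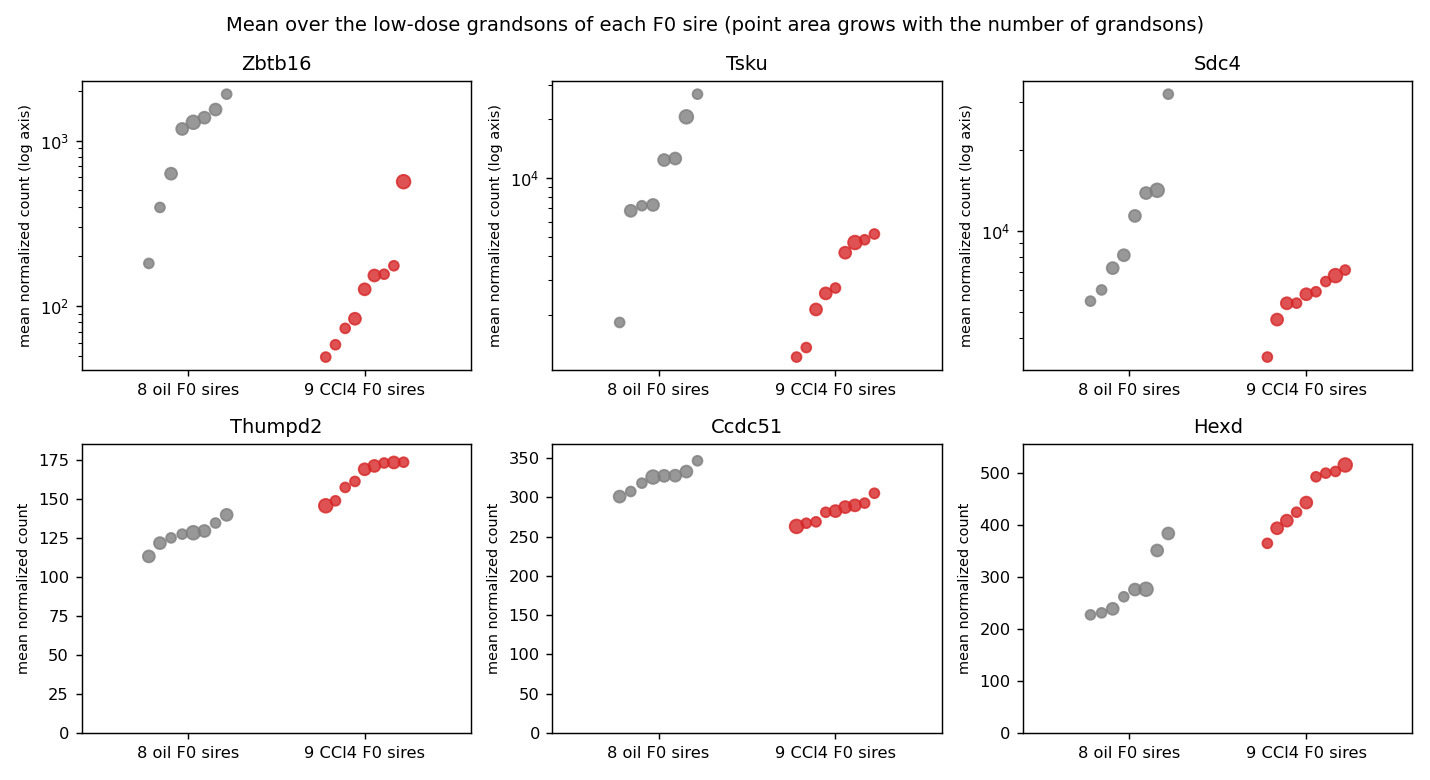
Mean normalized count over the low-dose grandsons of each of 8 oil-treated and 9 CCl4-treated F0 sires (points, area by number of grandsons) for 6 called genes, with log axes in the upper row. The sire means do not overlap for Thumpd2, where the CCl4-treated sires start at 146 and the oil-treated sires end at 140, and overlap for Zbtb16, Tsku, Sdc4, Ccdc51 and Hexd.

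Averaged per F0 sire, all 9 CCl4-treated sires lay on one side of the median of the 8 oil-treated sires for 24 of the 35 genes (4.72% of all tested genes), a description, because the sire means are averages of the males whose contrast chose the 35. For Zbtb16 the sire means ran from 182 to 1903 normalized counts (median 1231) for oil-treated sires and from 49.5 to 565 (median 127) for CCl4-treated ones, and all 9 lay below the median of the others. For Tsku they ran from 1826 to 26898 (median 9836) against 1215 to 5179 (median 2740). In Hexd the range was 227 to 384 (median 269) against 365 to 516 (median 443). Thumpd2 was the only called gene whose sire means did not overlap, at 113 to 140 against 146 to 174 normalized counts, and 4 of all 17938 tested genes (0.0223%) were without overlap. The consensus correlation of grandsons of the same F0 sire was 0.0759 in limma-voom.

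The other gene lists held few calls. All 47 genes of ribosome biogenesis with an identifier (of 60) had a negative difference (median -0.19, range -0.39 to -0.03), where 50.6% of all tested genes had a positive one, and 29 of the 47 had an unadjusted p under 0.05. None was called by edgeR. Mphosph10, a component of the complex that processes the small ribosomal subunit, differed by -0.39 (SE 0.10, adjusted p = 0.122) and Gar1, of the box H/ACA particles, by -0.38 (SE 0.12, adjusted p = 0.191). The study chose the symbols of these genes on these and other samples, so the common sign is not independent evidence. Of 14 genes of Wnt, TGF-beta and Notch signalling with an identifier (of 21), Tcf7l2 was called. A positive difference was seen in 11 (50.6% of all tested genes), 5 of these with an unadjusted p under 0.05 (11.6% of all tested genes in either direction). Among them were Notch1 (0.43, SE 0.13, adjusted p = 0.173) and Tle2, a Groucho co-repressor (0.58, SE 0.18, adjusted p = 0.18). Of the 3 with a negative difference, 1 had such a p. These genes too were picked by the study on samples that include these, so the shares are a description. Of the 4 stellate cell genes that the study names, Vegfa was called, and Ski, an inhibitor of SMAD signalling, differed by 0.53 (SE 0.14, adjusted p = 0.114), Il17ra by 0.19 (SE 0.06, adjusted p = 0.169) and Ahr by -0.37 (SE 0.16, adjusted p = 0.368). Of the genes named here, Ski (adjusted p = 0.0388), Il17ra (0.0834), Notch1 (0.0636), Tle2 (0.0961) and Mphosph10 (0.0751) passed the threshold without group 18 replicate 10. Without group 15 replicate 4 Ski, Notch1, Tle2 and Mphosph10 passed, without group 15 replicate 1 Ski and Mphosph10, and without group 15 replicate 7 Ski.

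Among epigenetic regulators, 0 of 4 genes of DNA methylation with an identifier were called, all 4 with a positive difference (median 0.32), of which the largest was that of Tet3, an enzyme of DNA demethylation (0.47, SE 0.13, adjusted p = 0.153). Of 10 genes with an identifier listed with the histone demethylases (of 24), 0 were called and 7 had a positive difference (50.6% of all tested genes), 6 of these with an unadjusted p under 0.05. Of the 3 with a negative difference, 2 had such a p. In either direction 11.6% of all tested genes had such a p. The genes of both lists were picked by the study on samples that include these, so the shares are a description. Kdm4a differed by 0.25 (SE 0.06, adjusted p = 0.108) and Riox1 by -0.44 (SE 0.12, adjusted p = 0.124). Jarid2, listed with the demethylases but a partner of Polycomb complex 2, differed by 0.34 (SE 0.09, adjusted p = 0.114). Without group 18 replicate 10, Kdm4a (adjusted p = 0.0464), Jarid2 (0.0489), Riox1 (0.0848) and Tet3 (0.0694) passed the threshold, and so they did without group 15 replicate 4 (0.0513, 0.0663, 0.0564 and 0.0268). Kdm4a also passed without group 15 replicate 1, 7 or 9 or group 12 replicate 2, Jarid2 without group 15 replicate 1 or group 21 replicate 7, and Riox1 without group 15 replicate 7. Of the central zone, where CCl4 acts, Glul differed by -0.39 (SE 0.13, adjusted p = 0.222) and Cyp1a2 by -0.31 (SE 0.14, adjusted p = 0.367), and 0 of the 4 genes with an identifier (of 18) were called. Glul passed the threshold without group 15 replicate 4 (-0.43, adjusted p = 0.0974). Cdkn1a, a p53 target that halts the cell cycle, differed by -1.10 (SE 0.29, adjusted p = 0.122) and passed without group 18 replicate 10 (adjusted p = 0.0834) or group 15 replicate 1 or 4, and Edem1, of the unfolded protein response, by -0.60 (SE 0.20, adjusted p = 0.221).

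The lists of fibrogenesis, cell cycle, lymphocytes, endothelial cells, NRF2 targets, fatty acid synthesis and fatty acid oxidation had 1 gene with an identifier each, those of cholangiocytes and of the unfolded protein response 2, immediate early genes and cholesterol synthesis 3, p53 targets 4 and fasting and feeding genes 6, and 0 of them were called by edgeR. Of the 7 lists with 1 gene, that of the cell cycle had an unadjusted p under 0.05. The lists of hepatocytes, of blood and neighbouring tissue and of heat shock had no gene with an identifier, so they could not be described.

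**Figure D5:**
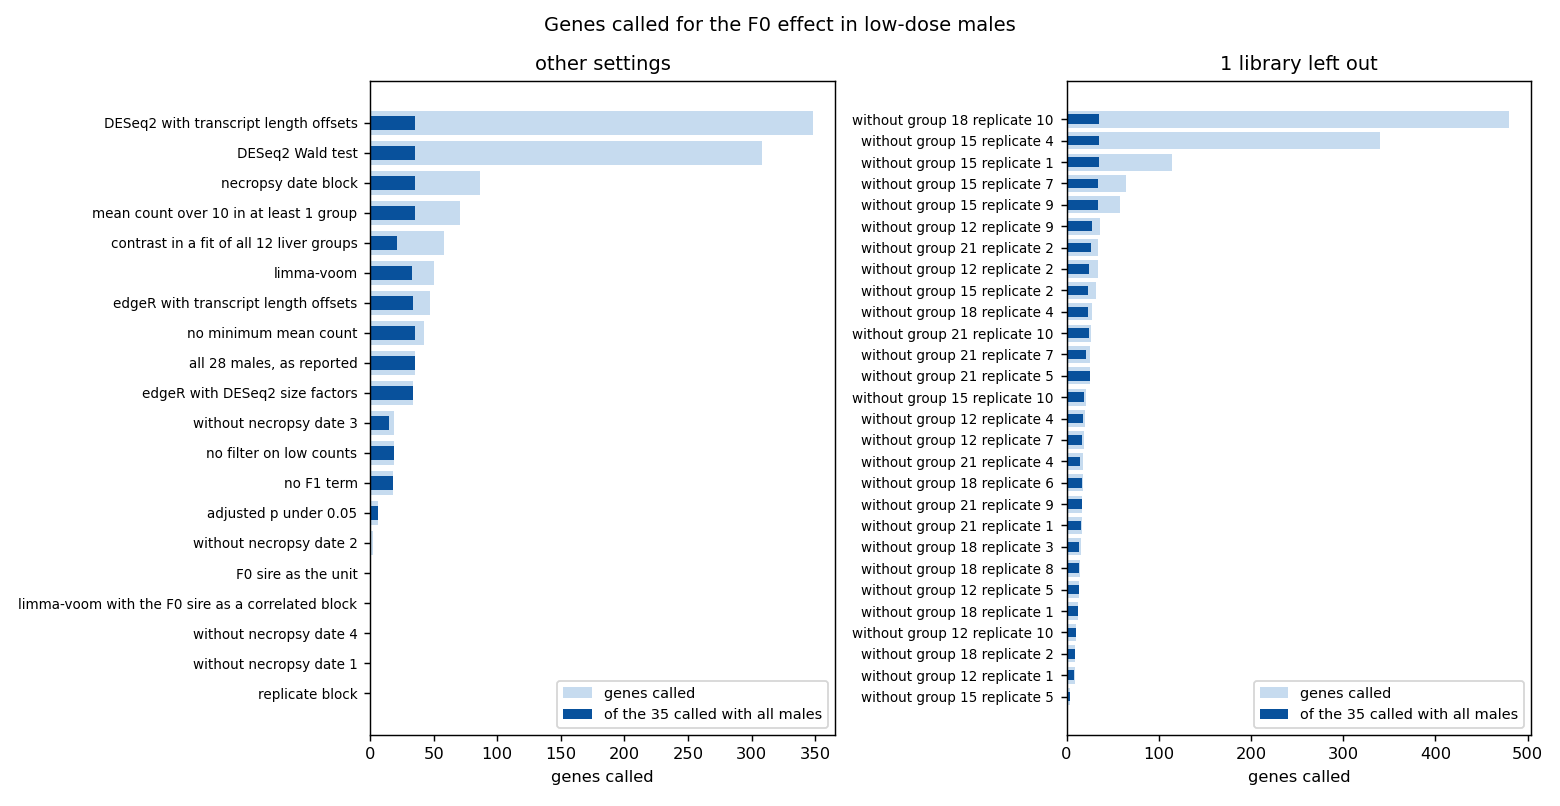
Number of genes called for the F0 effect (light bars) and how many of these are among the 35 (dark bars), under other settings (left) and with 1 of the 28 libraries left out (right). The number lies between 0 and 348 on the left and between 4 and 480 on the right.

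Among the 35 genes, Hexd, Zbtb16, Arl8b and Rreb1 stayed called when any of the 28 males was left out, with adjusted p up to 0.0827, 0.0905, 0.0905 and 0.0858, and Tsku, Zfp354a and ENSRNOG00000019481.5 were lost with 1 male left out. At the other end, Vegfa was called in 5 of the 28 and Akap8l in 6. Of the 35 genes, 6 had an adjusted p under 0.05.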

How the data were processed

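RNA of F2 male liver was sequenced as stranded, polyA-selected libraries. Per the study's methods, reads were quantified with Salmon 0.14.0 against Ensembl rat transcripts and summed per gene with tximport, with each sample quantified on its own. The genome build is not given in the sources used here. The authors deposited gene-level estimated counts rounded to whole numbers, and a matching table of average transcript lengths. The deposited kidney tables were not used, and 0 per-sample columns lacked a sample.

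Low-dose livers were grouped by the labels. Of 31998 identifiers, the 17938 whose counts summed to more than 10 in 1 or more of the 4 groups were tested with edgeR 4.0.16 (TMM, quasi-likelihood) in R 4.3.3, with terms for F0 and F1 treatment. A gene was called at a Benjamini-Hochberg adjusted p under 0.1 over all tested genes and a mean normalized count over 50. A normalized count is the count scaled to the mean effective library size. The F1 arms and the interaction came from a fit of the 4 group means, the difference between doses from a fit of all 12 liver groups, and vehicle and high-dose males were also fitted alone. DESeq2 1.42.0 and limma 3.58.1 were alternatives, beside other filters, length offsets, blocks for date, F0 sire and replicate number, and leaving out each male or date. The edgeR model of the F0 effect was also run on simulated counts, with no outcome given here. Plots were drawn with matplotlib 3.10.9.

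The comparison, its genes and the gene lists were chosen with earlier results of these data known. Genes named were list members with an identifier and up to 10 higher and 10 lower called genes with a symbol, the largest changes and a constant sign over arms and dates. The other called genes, and the genes of the correlations, fall outside that rule or were chosen after their values were seen. Symbols came from a supplementary list of the study, promoters from RefSeq (GRCr8) by symbol. Counts without molecular identifiers are not independent molecules. Some listed genes are not reported here.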

Additional observations from a re-analysis of the deposited data

Results flagged for a closer look

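Of 144 sets of 7 males (library totals and the 35 called genes, in each of the 4 groups), 9 held a male that stood far from the other 6 of its group, and chance marks about 1 in 20 sets. The library total of group 12 replicate 10 was 49469175, with the next at 39459216. In group 15, Vegfa reached 8100 normalized counts in replicate 4, against 5348 in the next male, and Dclre1b reached 499.9 in replicate 5, against 339 in the next. These are the males without which 340 and 4 genes were called for the F0 effect.

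In group 18, Tnrc18 was 936 normalized counts in replicate 10, with the next male at 1859, Slc19a2 was 2832 in replicate 4, with the next at 4243, and Dhdds was 2851 in replicate 2, with the next at 1944. In group 21, Zfp354a was 607 in replicate 10, with the next at 372, and Vegfa was 4763 in replicate 2, with the next at 5761. In group 12, ENSRNOG00000008842.4 was 2029 in replicate 9, with the next at 2487. Each of the males named for Tnrc18, Slc19a2 and Dhdds lay toward the values of the males with oil-treated grandsires.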

How the results depend on the processing

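The 35 calls of the F0 effect became 6 at an adjusted p under 0.05, 308 with DESeq2, 348 with DESeq2 and transcript length offsets, 71 among genes with a mean count over 10 in a group, 19 with no filter, 18 without the F1 term, 86 with the necropsy date as a block, 58 in the fit of all 12 groups (21 of the 35 among them), 1 with the F0 sire as the unit, and 1 with the F0 sire as a correlated block. Without dates 1 to 4 they became 0, 2, 19 and 0. Leaving out 1 male gave 4 to 480. The count moved by over 1.5 times upward without group 15 replicates 1, 4, 7 and 9 and group 18 replicate 10, and downward without group 12 replicates 1, 4, 5, 7 and 10, group 15 replicates 5 and 10, group 18 replicates 1, 2, 3, 6 and 8, and group 21 replicates 1, 4 and 9. The causes were not tested. With the replicate number as a block 0 genes were called (1500 at an unadjusted p under 0.05). This block was unbalanced: replicates 3, 6 and 8 were present only in group 18, and replicates 5, 7 and 9 only in the other groups. Same-numbered males were necropsied on the same date, so this block is nested in the date, but the labels give no other tie between them. Their deviations from the group means had a mean correlation of 0.0194 over 33 pairs, of which 6 were over 0.1. With an oil-treated F1 sire the 7 calls became 13 with the date block, 1 with the replicate block, 242 with DESeq2 and 16 when only its 2 groups were fitted. With a CCl4-treated F1 sire 0 became 1 with the date block, 1 with the replicate block and 1 with DESeq2. DESeq2 called 2 genes for the F0 effect by dose against vehicle and 2 against the high dose. The interaction and the F1 effect stayed at 0 under the alternatives run. None of the 35 genes reversed under any of them, a description, because the same males chose the 35.

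The F0 sires, 8 and 9, are the units of the ancestral treatment, fewer than the 28 males. The necropsy hour is not given in the sources used here, so clock gene levels could not be set against it. Most genes carry no symbol here, so the gene lists cover a part of their members, picked by the study.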
